A study of Mus musculus with 32 samples.

Results

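The 10 genes described here encode cytokines of the IL-17, IL-22 and IL-23 system, the receptor chains they signal through, and a transcriptional regulator and a chemokine that lie downstream. They are Il17a, Il17f, Il17c, Il22, Il23a, Il17ra, Il17rc, Il17re, Nfkbiz and Ccl20. Each was taken by its symbol in the platform annotation, with the row of the highest mean over the 32 arrays, and each had a single row. They are 10 of the 19505 genes that could be named. Expression was measured on Mouse Clariom D arrays of NC/Nga mice, a strain known to develop dermatitis, kept under specific pathogen-free conditions. The labels give 4 groups of 8 mice by site and agent: sham back skin, HDM back skin, sham ear and HDM ear. The labels do not spell out HDM, do not describe the sham treatment and give neither age nor sex. Each sample was an 8 mm punch, which holds epidermis and dermis with the immune cells in them, so a lower level from fewer cells of a type and one from less RNA per cell cannot be told apart. The same mouse numbers recur in every group, but the labels do not say that they mark the same animal, and the p-values measure the spread between these samples.

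IL-17A and IL-17F are related cytokines made by T helper 17 cells, gamma-delta T cells and innate lymphoid cells, and they act on keratinocytes through a receptor that pairs IL-17RA with IL-17RC. IL-17C comes mainly from epithelial cells and binds IL-17RA paired with IL-17RE. IL-23, whose own subunit is encoded by Il23a, sustains the cells that make IL-17 and IL-22, and IL-22 acts on epithelial cells that carry IL-22RA1 and IL-10RB. In keratinocytes IL-17 signalling induces Nfkbiz, which encodes the NF-kappaB cofactor I-kappaB-zeta, and Ccl20, the chemokine that draws in cells bearing CCR6.

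The levels below are deposited log2 values. As background of each array served the median over its 5222 negative controls, between 4.43 and 5.38. Its group means were 4.72 in sham back skin, 4.84 in HDM back skin, 5.20 in sham ear and 4.82 in HDM ear. Il17a, Il22 and Il23a lay under background on all 8 arrays of both sham groups, as did Il17f, and Il17c did so in sham ear. Il17a and Il22 were also under it on all 8 HDM back skin arrays. By mean, Il17a, Il22 and Il23a were under background in all 4 groups. The 3 receptor genes and Nfkbiz were above background on all 32 arrays, and Ccl20 on all but 3 sham ear arrays.

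Arrays of a group resembled each other, with correlations of 0.975 to 0.994 between an array and the mean of the rest. Keratinocyte markers were high everywhere, with list means between 17.27 and 18.37. Hair follicle markers were lower in ear than in back skin for 6 of 6 genes in both sham and HDM mice. Of all rows 14.1% were lower in ear in sham mice and 11.2% in HDM mice. Mice 1 and 2 of sham back skin stood apart from the rest. Their hair follicle marker means were 9.5 and 14.01, where the group median was 16.73, and their neutrophil marker means were 8.73 and 9.0, where the group median was 6.11. Results in back skin are therefore also given without these 2 arrays where that ends or adds a call, or moves a called value by more than 1.5 times. The 2 arrays were picked from these same data. Each was among the 2 highest of its group for 8 of the 10 genes, so leaving it out tends to raise the difference from sham. Calls added without them are thus no independent support.

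Against sham, 1 of the 10 genes was higher and 0 lower in HDM back skin at an adjusted p under 0.05, where 6.18% of all 22206 tested rows were higher and 8.56% lower. In HDM ear 8 of the 10 were higher and 0 lower, against 16.4% and 15.5% of all rows. At an unadjusted p under 0.05, limma gave 3 higher and 0 lower in back skin and 9 higher and 0 lower in ear. All shares of rows given here are at the adjusted threshold, so unadjusted counts cannot be set against them. The median difference of the 10 genes was 0.30 in back skin and 1.44 in ear on the log2 scale, and that of all tested rows was 0.01 and -0.02. Setting each value under background to that level gave medians of 0.15 and 0.68 for the 10 genes. Il17f was called at both sites. Il17a, Il17c, Il22, Il17ra, Il17rc, Nfkbiz and Ccl20 were called in ear and missed the threshold in back skin. Il23a and Il17re were called at neither site. The difference between the HDM effects at the sites was tested for each gene, and Il17ra, Nfkbiz and Ccl20 passed, all with the larger effect in ear, where 6.77% of all rows passed in that direction and 3.37% in the other.

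**Figure D1:**
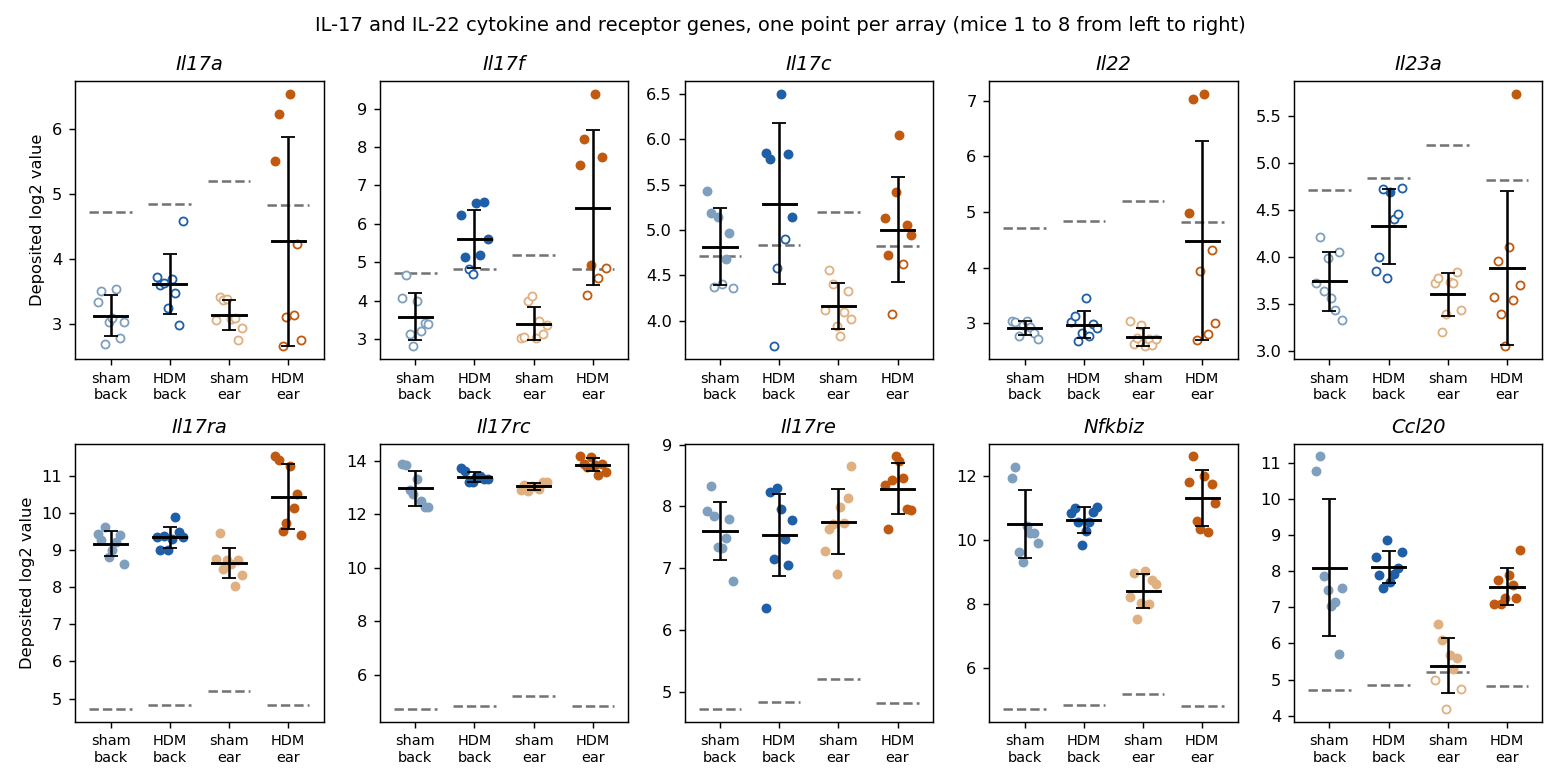
Deposited log2 values of the 10 genes on each of the 32 arrays, with mice 1 to 8 from left to right in each group. Bars give the group mean ± SD, dashed lines the mean background of the group, filled points arrays above their own background and open points arrays under it; the vertical axes differ between genes. The 8 HDM ear arrays of Il17f run from 4.14 to 9.39, all above the sham ear arrays.

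**Figure D2:**
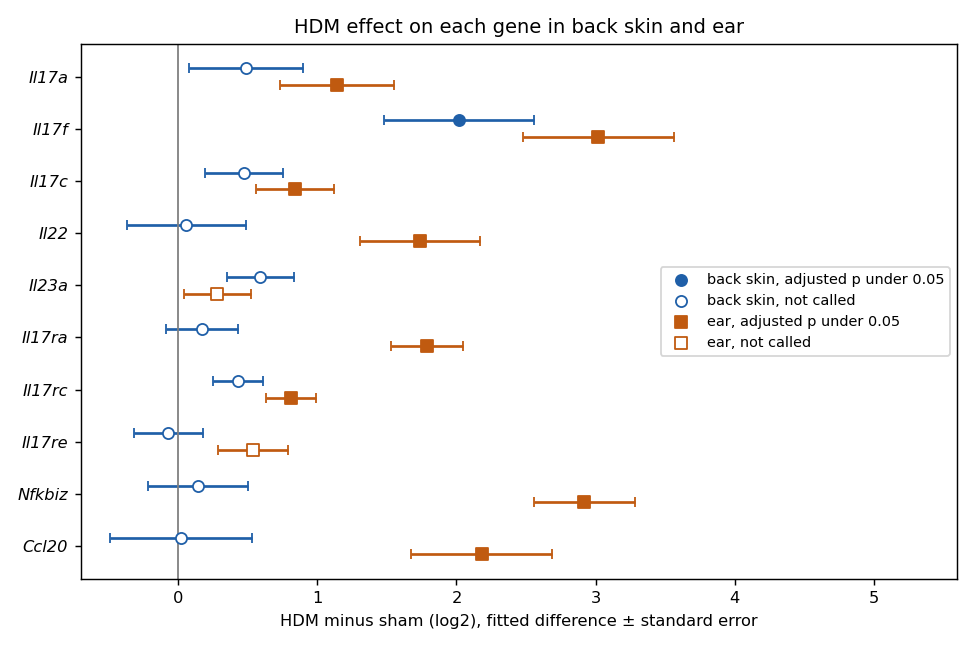
Difference between HDM and sham for each of the 10 genes, in back skin (circles) and ear (squares), as the fitted log2 difference with its standard error; filled symbols passed an adjusted p of 0.05. In ear 8 symbols are filled and in back skin only that of Il17f.

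Il17a and Il17f lie next to each other on mouse chromosome 1, with 0 protein-coding genes between them in the RefSeq annotation of GRCm38.p6. Their promoters are shown because both hold the letters AGGTCA, the core half-site in the DNA elements of many nuclear receptors. A promoter was in the RefSeq table for 7 of the 10 genes. Below are the 250 bases before the annotated start of each, written 5′ to 3′ along the gene, with the core or its complement in capitals.
Il17a, chr1:20730655-20730904, plus strand, GRCm38.p6: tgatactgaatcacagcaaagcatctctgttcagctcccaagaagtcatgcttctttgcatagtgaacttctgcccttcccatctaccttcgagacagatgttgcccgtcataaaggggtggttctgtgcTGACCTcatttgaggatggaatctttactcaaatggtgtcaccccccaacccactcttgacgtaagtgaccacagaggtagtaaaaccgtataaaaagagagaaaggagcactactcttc
Il17f, chr1:20784271-20784520, minus strand, GRCm38.p6: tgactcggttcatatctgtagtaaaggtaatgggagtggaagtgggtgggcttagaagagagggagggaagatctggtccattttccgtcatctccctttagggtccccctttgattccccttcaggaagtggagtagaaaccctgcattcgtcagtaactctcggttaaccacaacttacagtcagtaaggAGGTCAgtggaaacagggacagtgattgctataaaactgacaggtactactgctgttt
The core begins 120 bases before the start of Il17a, on the complementary strand, and 58 bases before that of Il17f. On either strand it occurs in 14% of the 32851 promoters of this length, so these matches are a description of the letters and show no binding. The promoter of Ccl20 also holds the core, 174 bases before its start.

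Il17f was the member with the largest rise in back skin and was higher in HDM mice at both sites. In sham back skin its values ran from 2.81 through a median of 3.41 to 4.66, and in HDM back skin from 4.70 through 5.40 to 6.58. The groups did not overlap: every HDM array was above every sham array, and 6 of 8 HDM arrays were above background where no sham array was. The difference was 2.02 ± 0.54 (SE; limma, adjusted p = 0.00883). Sham was under background, and taking sham at its mean background gives at least 1.85-fold higher. With all values raised to the highest background of any array the difference was 0.43 (limma, adjusted p = 0.787), so the call rests on values close to background.

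In ear the sham values of Il17f ran from 3.02 through 3.26 to 4.11, and the HDM values from 4.14 through 6.23 to 9.39. All 8 HDM arrays again lay above all 8 sham arrays, by a margin of only a few hundredths for the lowest, and 5 of 8 were above background. The difference was 3.02 ± 0.54 (limma, adjusted p = 4.35e-05), at least 2.33-fold with sham taken at its mean background. The sign turned, to -0.54, when values were raised to each array's 95th percentile of the negative controls, which had group means of 8.64 in HDM ear and 9.29 in sham ear. HDM ear fell into high and low arrays: mice 1, 2, 5 and 7 had 7.54, 8.21, 9.39 and 7.74, and mice 3, 4, 6 and 8 had 4.14, 4.93, 4.58 and 4.84. The HDM effect was larger in ear by 1.00 ± 0.76, which did not pass the test (limma, adjusted p = 0.45).

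Il17a, the founding member of the family, was dim throughout. Its sham back skin values ran from 2.68 through 3.05 to 3.53 and its HDM back skin values from 2.98 through 3.62 to 4.58, all under background. The fitted difference of 0.49 ± 0.41 did not pass (limma, adjusted p = 0.473), and with both groups under background it gives no fold. In ear the sham values ran from 2.75 through 3.08 to 3.41. The HDM ear values were 5.51, 6.22 and 6.54 for mice 1, 2 and 5, which were above background, and 4.23 for mouse 7, with the other 4 arrays between 2.65 and 3.13.

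Thus 4 HDM ear arrays lay above all sham ear arrays and 4 lay within or under the sham range. The mean of 4.27 ± 1.61 (SD, n = 8) was under the background of its own group, so the size of the difference, 1.14 ± 0.41 (limma, adjusted p = 0.03), is uncertain. When each value under background was set to that level, the difference became 0.16 (limma, adjusted p = 0.442). The call was also lost without HDM ear mouse 1, 2 or 5 or without sham ear mouse 7, with differences from 0.81 to 1.08, and the exact two-sided permutation test gave an unadjusted p of 0.083.

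Il22, which encodes a cytokine that drives epithelial proliferation and defence, was seen above background only in HDM ear. Its values ran from 2.71 to 3.04 in sham back skin, from 2.68 to 3.45 in HDM back skin and from 2.59 to 3.04 in sham ear, with medians of 2.95, 2.95 and 2.72. In HDM ear they were 4.99, 7.03 and 7.13 for mice 1, 2 and 5, the 3 arrays above background, and 2.70 to 4.31 for the others. The mean of 4.49 ± 1.78 (SD, n = 8) was under background.

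The HDM effect on Il22 was 0.06 ± 0.43 in back skin (limma, adjusted p = 0.952) and 1.74 ± 0.43 in ear (limma, adjusted p = 0.00181). With values raised to background the ear difference was 0.27 (limma, adjusted p = 0.347). The effect was larger in ear by 1.68 ± 0.60, which did not pass (limma, adjusted p = 0.0735) and did so when HDM ear mouse 3, 6 or 8 was left out. The 3 mice with Il22 above background were the same 3 that had Il17a above background.

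Il17c, the epithelial family member, was near background in all groups. Its values in back skin ran from 4.36 through 4.82 to 5.43 in sham and from 3.72 through 5.46 to 6.50 in HDM mice, an overlap of the whole sham range, with a difference of 0.47 ± 0.28 (limma, adjusted p = 0.287). In ear they ran from 3.83 through 4.11 to 4.56 in sham and from 4.08 through 5.00 to 6.04 in HDM mice. Of the HDM ear arrays 7 of 8 were above all sham ear arrays, and 6 of 8 were above background, against 0 of 8 sham arrays. The ear difference was 0.84 ± 0.28 (limma, adjusted p = 0.019) and the call was lost without HDM ear mouse 5. The background itself was 5.20 in sham ear and 4.82 in HDM ear, and with values raised to it the sign turned, to -0.05.

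Il23a was under background on all arrays but HDM back skin mouse 5 and HDM ear mouse 7. Its values in back skin ran from 3.33 through 3.68 to 4.21 in sham and from 3.78 through 4.44 to 4.74 in HDM mice, and 5 of 8 HDM arrays lay above the sham range. The difference of 0.59 ± 0.24 did not pass (limma, adjusted p = 0.097). In ear the sham values ran from 3.20 to 3.84 and the HDM values from 3.05 to 5.74, with a difference of 0.28 ± 0.24 (limma, adjusted p = 0.424). Il12b, which encodes the other subunit of IL-23, had no row with that symbol.

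Among the receptor genes, Il17ra, the chain shared by the family, rose in HDM ear. Its values ran from 8.63 through 9.25 to 9.63 in sham back skin and from 8.99 through 9.35 to 9.88 in HDM back skin, which overlapped, with a difference of 0.17 ± 0.26 (limma, adjusted p = 0.727). In ear they ran from 8.04 through 8.68 to 9.45 in sham and from 9.41 through 10.32 to 11.52 in HDM mice, and 7 of 8 HDM arrays were above every sham array. The difference was 1.79 ± 0.26, or 3.47-fold (limma, adjusted p = 2.21e-06). The HDM effect was larger in ear by 1.62 ± 0.36 (limma, adjusted p = 0.00366). Mice 1, 2 and 5 again had the highest HDM ear values, 11.52, 11.43 and 11.27.

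Il17rc, the partner chain for IL-17A and IL-17F, moved less. Its ear values ran from 12.86 through 13.04 to 13.23 in sham and from 13.46 through 13.87 to 14.17 in HDM mice, with no overlap. The ear difference was 0.81 ± 0.18, or 1.75-fold (limma, adjusted p = 0.000742). In back skin the sham values ran from 12.26 through 12.84 to 13.89 and the HDM values from 13.20 through 13.37 to 13.74, inside the sham range, with a difference of 0.43 ± 0.18 that did not pass (limma, adjusted p = 0.112). The 2 highest sham values, 13.89 and 13.84, were those of mice 1 and 2, and without them the back skin difference was 0.73 (limma, adjusted p = 0.000704). The effects at the sites differed by 0.38 ± 0.26, which did not pass (limma, adjusted p = 0.394).

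Il17re, the partner chain for IL-17C and the neighbour of Il17rc in the annotation, with 0 protein-coding genes between them, was not called for HDM at either site. Its back skin values ran from 6.79 through 7.64 to 8.33 in sham and from 6.36 through 7.63 to 8.30 in HDM mice. Its ear values ran from 6.91 through 7.72 to 8.65 in sham and from 7.64 through 8.38 to 8.81 in HDM mice. The groups overlapped at both sites, and the differences were -0.07 ± 0.25 (limma, adjusted p = 0.905) and 0.54 ± 0.25 (limma, adjusted p = 0.11).

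Nfkbiz had the most certain ear response of the 10 genes, by adjusted p. Its sham ear values ran from 7.52 through 8.43 to 9.03 and its HDM ear values from 10.24 through 11.46 to 12.62. The groups were separated by more than 1 log2 unit, and the difference was 2.92 ± 0.36, or 7.57-fold (limma, adjusted p = 2.89e-07). In back skin the sham values ran from 9.33 through 10.21 to 12.28 and the HDM values from 9.85 through 10.70 to 11.05, wholly inside the sham range.

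The back skin difference of Nfkbiz was 0.14 ± 0.36 (limma, adjusted p = 0.857). The sham arrays of mice 1 and 2, at 11.95 and 12.28, were above every HDM array of that site, and without them the difference was 0.68 (limma, adjusted p = 0.146). The HDM effect was larger in ear by 2.78 ± 0.51 (limma, adjusted p = 0.000665), and by 2.24 without those 2 arrays (limma, adjusted p = 0.00102).

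Ccl20 also rose in HDM ear. Its promoter is shown because it holds overlapping matches to the NF-kappaB pattern (GGG, 5 bases of any kind, then CC), in capitals, within the 250 bases before the annotated start.
Ccl20, chr1:83116516-83116765, plus strand, GRCm38.p6: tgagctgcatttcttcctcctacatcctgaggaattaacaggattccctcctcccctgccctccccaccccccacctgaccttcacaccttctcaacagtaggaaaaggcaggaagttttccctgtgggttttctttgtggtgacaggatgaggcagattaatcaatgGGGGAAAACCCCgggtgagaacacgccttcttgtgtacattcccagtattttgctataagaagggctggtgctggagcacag
The 4 overlapping matches over both strands begin 82 bases before the start, and 45.8% of the 32851 promoters of this length hold at least 1 match to the pattern. The promoters of Il17a and Il17rc also hold matches, 1 and 3.

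The values of Ccl20 in ear ran from 4.18 through 5.44 to 6.54 in sham and from 7.09 through 7.44 to 8.59 in HDM mice, with no overlap and a difference of 2.18 ± 0.51, or 4.55-fold (limma, adjusted p = 0.00101). All these ear values lay under the mean 95th percentile of the negative controls, 9.29 in sham ear and 8.64 in HDM ear. In back skin the values of Ccl20 ran from 5.71 through 7.52 to 11.19 in sham and from 7.53 through 8.00 to 8.88 in HDM mice. The HDM arrays lay inside the sham range, and the difference was 0.02 ± 0.51 (limma, adjusted p = 0.987). The sham arrays of mice 1 and 2 had 10.79 and 11.19, more than 2 log2 units above the other 6, which ran up to 7.86. Without these 2 highest sham values, whose removal must raise the difference, Ccl20 was higher in HDM back skin by 0.98 (limma, adjusted p = 0.0359).

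The difference between the HDM effects on Ccl20 was 2.16 ± 0.72 (limma, adjusted p = 0.0493). It was lost in 23 of the 32 fits that left out 1 array each, with values from 1.72 to 2.51, and was 1.20 without sham back skin mice 1 and 2 (limma, adjusted p = 0.0841). It turned to -0.37 with values raised to the 95th percentile of the negative controls.

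**Figure D3:**
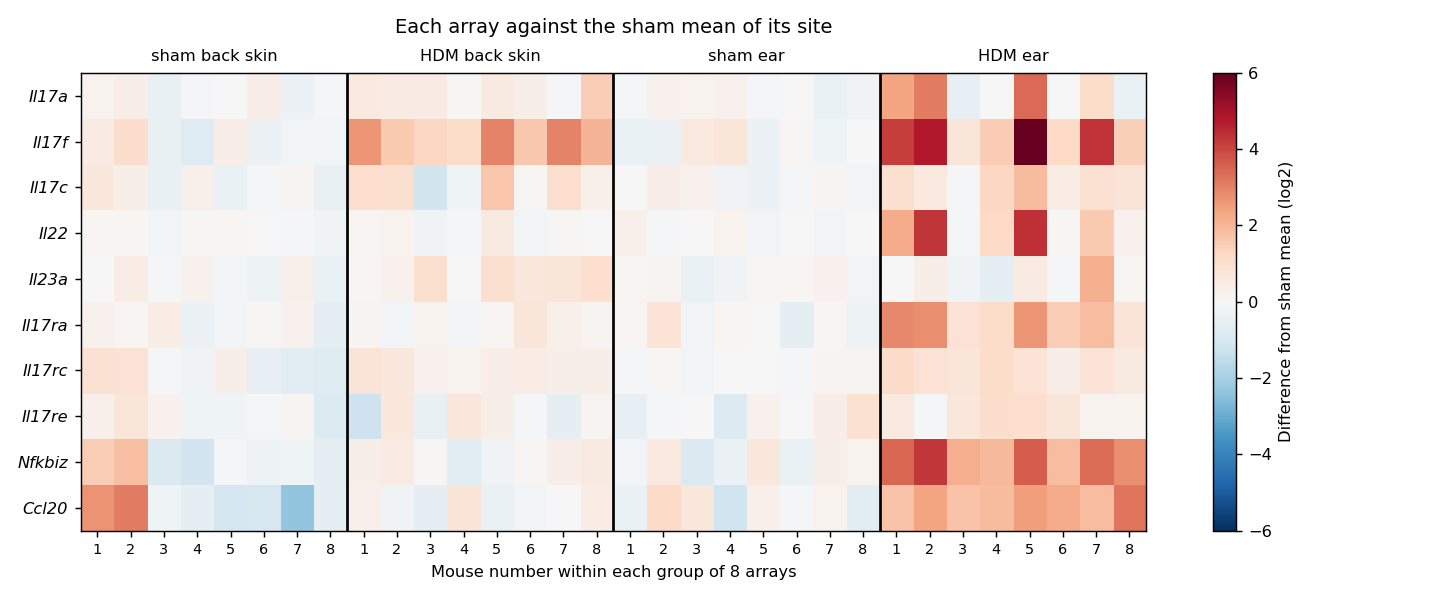
Each array's log2 value minus the sham mean of the same site, for the 10 genes (rows) and the mice of each group (columns); red is above the sham mean and blue under it. Sham back skin mice 1 and 2 are red for Nfkbiz and Ccl20, and HDM ear mice 1, 2, 5 and 7 are darkest for Il17f.

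The arrays that stood high did so for several of the genes at once. Sham back skin mice 1 and 2 were each among the 2 highest arrays of their group for 8 of the 10 genes. These include Il17f and Il22 for mouse 1 and Il17a, Il17f and Il23a for mouse 2, all under background on every array of that group. In HDM ear, mice 5, 2, 7 and 1 were above the group median for 9, 8, 8 and 7 of the 10 genes, and mice 4, 6, 8 and 3 for 3, 2, 2 and 1. Some marker lists of immune cells moved with them, and others did not. In HDM ear the mean of 7 measured T cell markers was 7.07, 7.79, 7.85 and 7.21 on mice 1, 2, 5 and 7 and 5.73 to 6.20 on the others, and that of 6 neutrophil markers was 14.52 to 15.98 on those 4 mice and 9.89 to 11.87 on the others.

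Macrophage markers had means of 11.67 to 12.33 on mice 1, 2, 5 and 7 and 10.28 to 11.37 on the others. In sham back skin the T cell marker means of mice 1 and 2 were 6.33 and 6.31, the highest of that group, and the other 6 ran from 5.26 to 6.16. The list of type 17 lymphocyte markers, of which 9 of 10 were measured, had means between 8.73 and 9.13 in HDM ear, with its highest value on mouse 8. In sham back skin its means were 8.90 and 9.01 on mice 1 and 2 and 8.24 to 8.65 on the others. Dendritic cell markers there had means of 8.17 and 7.85 on those mice and 6.34 to 6.93 on the others. In HDM ear the dendritic cell means overlapped, with 6.25 to 7.09 on mice 1, 2, 5 and 7 and 6.55 to 7.07 on the others. Of the gamma-delta T cell list 0 of 5 genes had a row with that symbol. The part of these cells in the results was not tested.

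Across the groups, T cell marker means ran from 5.26 to 6.33 in sham back skin, 5.91 to 6.92 in HDM back skin, 5.81 to 6.35 in sham ear and 5.73 to 7.85 in HDM ear. Against sham, 1 of 7 T cell markers was higher in HDM back skin and 3 of 7 in HDM ear, and 6 of 6 neutrophil markers were higher at both sites. Of all rows 6.18% were higher in back skin and 16.4% in ear, so the T cell count in back skin lies near that share. Of 5 macrophage markers 0 were higher in HDM back skin and 5 in HDM ear. All 5 skeletal muscle and all 5 adipocyte markers were lower in HDM ear, against 15.5% of all rows. Of the T cell markers only Cd8a was under background on all arrays of a group, in both sham groups. Of the neutrophil markers Mmp8 was under background in both sham groups, and Csf3r and Retnlg in sham ear.

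The sites themselves differed for some of the genes. In sham mice 2 of the 10 were lower in ear than in back skin and 0 were higher, where 14.1% of all rows were lower and 15.6% higher. The count of 2 lies near the share of all rows that were lower. Nfkbiz was lower in sham ear by -2.09 ± 0.36 (limma, adjusted p = 2.91e-05), with every sham ear array under every sham back skin array, and Ccl20 by -2.71 ± 0.51 (limma, adjusted p = 8.53e-05), with 6 of 8 ear arrays under the back skin range. Without sham back skin mice 1 and 2 the difference of Ccl20 was -1.75 (limma, adjusted p = 7.14e-05), and with values raised to the 95th percentile of the negative controls it turned to 0.23. In HDM mice 3 of the 10 were higher in ear and 0 lower, where 16.8% of all rows were higher and 11.2% lower.

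Those 3 genes were Il17ra, higher by 1.10 ± 0.26 (limma, adjusted p = 0.00124), Il22, by 1.52 ± 0.43 (limma, adjusted p = 0.00693), and Il17re, by 0.75 ± 0.25 (limma, adjusted p = 0.0247). The Il17re call was lost without HDM back skin mouse 1, 3 or 7 or HDM ear mouse 4 or 5, with differences from 0.58 to 0.86 over all fits that left out 1 array. With values raised to the highest background of any array, Il22 differed by 0.42 (limma, adjusted p = 0.133). The mean of Nfkbiz in HDM ear, 11.32 ± 0.87 (SD, n = 8), was the highest of its 4 groups, and that of Ccl20, 7.57 ± 0.51, lay under both back skin groups. The differences between HDM ear and HDM back skin, 0.69 ± 0.36 for Nfkbiz and -0.55 ± 0.51 for Ccl20, did not pass (limma, adjusted p = 0.167 and 0.477).

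The other genes of the pathway were counted in 4 lists. Of 4 measured ligand genes outside the set, Il17b, Il17d, Il25 and Il21, 0 were called by limma in back skin or ear. Of all rows 6.18% were higher and 8.56% lower in back skin, and 16.4% and 15.5% in ear. With only 4 genes, a count of 0 does not set the ligands apart from these shares. At an unadjusted p under 0.05 the counts were 0 in back skin and 1 in ear, Il25. Il25, which encodes the family member linked to type 2 responses, and Il21 were under background on all 32 arrays.

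Of 8 other receptor genes, 1 rose and 1 fell in HDM back skin, and 3 rose and 1 fell in HDM ear. In back skin these counts lie near the shares of all rows, 6.18% higher and 8.56% lower. In ear those shares were 16.4% and 15.5%. Without sham back skin mice 1 and 2 the rises in back skin were 2, Ccr6 being added. Il17rd, which encodes a receptor of the family that modulates its signalling, fell by 1.15 ± 0.26 in back skin (limma, adjusted p = 0.00275), and Il17rb, the receptor chain for IL-25, fell by 1.31 ± 0.28 in ear (limma, adjusted p = 0.000474). The HDM effect on Il17rb was lower in ear than in back skin by -1.59 ± 0.40 (limma, adjusted p = 0.00905). Il10rb, the chain that IL-22 shares with IL-10, rose by 0.74 ± 0.20 in back skin and 0.86 ± 0.20 in ear (limma, adjusted p = 0.0106 and 0.00107).

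The chain that confers the IL-22 response, Il22ra1, had differences of -0.20 ± 0.19 and -0.06 ± 0.19, neither of which passed (limma, adjusted p = 0.537 and 0.863). Il23r, the receptor for IL-23, and Ccr6, the receptor for CCL20, were called higher in ear, by 0.83 ± 0.23 and 0.87 ± 0.29 (limma, adjusted p = 0.00498 and 0.0194). Il23r was under background in sham ear, so that its rise was at least 1.20-fold. With values raised to background the ear calls ended, at 0.31 and 0.51 (limma, adjusted p = 0.11 and 0.0949). The call of Il23r held, at 0.27, and that of Ccr6 ended, at 0.49, with values raised to the highest background of any array (limma, adjusted p = 0.047 and 0.147). In back skin Ccr6 had a difference of 0.74 ± 0.29 (limma, adjusted p = 0.0815), and of 1.00 without sham back skin mice 1 and 2 (limma, adjusted p = 0.0181). It also passed there with array medians made equal (0.86; limma, adjusted p = 0.037). Il12rb1, the other chain of the IL-23 receptor, was under background on all arrays.

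Of 20 measured signalling and feedback genes, 2 rose and 2 fell in HDM back skin and 11 rose and 2 fell in HDM ear. The back skin counts lie near the shares of all rows, 6.18% higher and 8.56% lower. In ear those shares were 16.4% and 15.5%. The median difference was 0.11 in back skin and 0.57 in ear. For 7 of the 20 the HDM effect was larger in ear, where 6.77% of all rows passed in that direction. Zc3h12a, which encodes the ribonuclease Regnase-1, a brake on transcripts induced by IL-17, was the largest at both sites, at 1.80 ± 0.47 in back skin and 4.68 ± 0.47 in ear (limma, adjusted p = 0.0079 and 7.63e-09). Cebpb, a transcription factor gene, rose by 0.77 ± 0.24 and 0.89 ± 0.24.

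In ear the feedback genes Socs3, Tnfaip3 and Nfkbia rose by 3.68 ± 0.51, 1.45 ± 0.31 and 1.44 ± 0.31, and Stat3, the transcription factor downstream of IL-22 and IL-23, by 1.65 ± 0.22. In back skin their differences were 0.58 ± 0.51, -0.34 ± 0.31, 0.10 ± 0.31 and 0.44 ± 0.22, none of which passed. Without sham back skin mice 1 and 2 the rises of the list in back skin were 4, Stat3 among them at 0.79 (limma, adjusted p = 0.00242). Traf5, an adaptor gene, fell at both sites, by 1.45 ± 0.31 and 1.23 ± 0.31. The other falls were Tab2 in back skin, by 0.55 ± 0.15, and the kinase gene Tyk2 in ear, by 0.62 ± 0.18.

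Of 24 measured genes known as targets of IL-17 or IL-22 in keratinocytes, 18 rose and 1 fell in HDM back skin, and 23 rose and 0 fell in HDM ear. Of all rows 6.18% rose and 8.56% fell in back skin, and 16.4% and 15.5% in ear. The list's median difference was 3.06 in back skin and 4.88 in ear. For 8 of 24 the effect was larger in ear by the test, against 6.77% of all rows. Setting each value under background to that level gave medians of 3.07 and 3.42. Under background on all 8 arrays were 4 of the 24 in sham back skin and 10 in sham ear. S100a9 had the largest difference at both sites, 8.57 ± 0.84 and 12.03 ± 0.84. Neutrophils also carry S100a8 and S100a9 transcripts, and both genes are on the neutrophil list too. The mean of its other 4 measured genes ran from 4.62 to 6.66 in sham back skin, 7.66 to 9.82 in HDM back skin, 4.27 to 4.96 in sham ear and 6.82 to 14.26 in HDM ear. The part of these cells in the counts was not tested.

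Il20, a cytokine gene of the IL-10 family, was the target that fell in back skin and the one that was not called in ear. It fell in HDM back skin from a mean of 6.37 to 3.73, under background on all 8 arrays, and was at least 2.90-fold lower (limma, adjusted p = 1.89e-07). In ear it differed by -0.20 ± 0.30 (limma, adjusted p = 0.681). The effects at the sites differed by 2.44 ± 0.42 (limma, adjusted p = 0.000378).

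**Figure D4:**
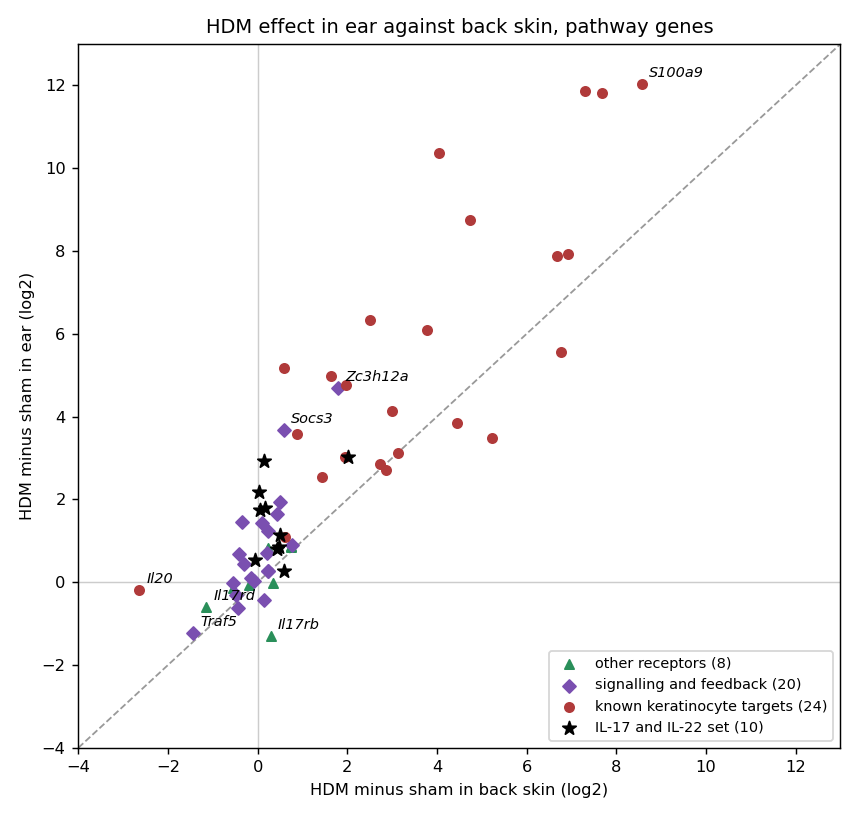
HDM minus sham in back skin (horizontal) against ear (vertical), in fitted log2 differences, for the set of 10 genes (stars), 8 other receptors (triangles), 20 signalling and feedback genes (diamonds) and 24 targets (circles); the dashed line marks equal differences. Most targets lie above the line, Il20 stands at the left and Il17rb under the horizontal axis.

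For each gene of the set that was called in ear, the 3 genes with the most similar pattern were found by the root mean square difference of centred log2 values over the 32 arrays, among 19495 other genes. The difference was 0.39 to 0.42 for Il17ra (Limd2, Tgfb1 and Snx5) and 0.26 to 0.27 for Il17rc (Psat1, Ssr1 and Il13ra1). For Nfkbiz, whose SD over the arrays was 1.33, the nearest were Steap4 at 0.38, Cd44 at 0.47 and Lcp1 at 0.50. The nearest to Il17f were Tnfaip2 at 0.59, Ifitm1 at 0.67 and Vstm5 at 0.68, against an SD of 1.70.

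Il22 was followed most closely by F7, Il21r and Rhoh, at 0.49 to 0.51, and Il17a by Fcgr4, Siglece and Cyp4f18, at 0.45 to 0.47. All but Siglece and Cyp4f18 of these 6 were above background on at most 5 of the 32 arrays. For Il17c, with an SD of 0.69, the nearest were Ndufc1, Olfr1424 and Rpn1 at 0.46 to 0.50. Of these Olfr1424 was above background on 0 of the 32 arrays. The nearest to Ccl20 were Ccr2, Apol7c and Kntc1, at 0.93 to 0.96 against an SD of 1.53.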

How the data were processed

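The authors deposited 1 table of log2 expression values for the 32 arrays, which the submitters' processing notes trace to RMA and the Transcriptome Analysis Console; tool versions and genome build: not given in the sources used here. Values ran from 1.71 to 19.93, and a later rescaling could not be judged, so fold sizes are less certain than directions. RNA (100 ng per sample) came from punches kept at least 18 hours in RNAlater. The 6640 control rows were left out, and group means of 22206 rows were fitted to the 32 arrays together (R 4.3.3, limma 3.58.1, lmFit and eBayes, no block, two-sided, 32.1 total degrees of freedom), with Benjamini-Hochberg adjustment over these rows and a threshold of 0.05. The script was tested on simulated data. Differences are given ± SE, groups of 8 as mean ± SD. The spread is pooled over the groups, although HDM ear arrays spread widely. The number of arrays limits the precision.

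A gene under background on all arrays of a group has only a bound, "at least N-fold". The bound takes that group at its mean background and need not hold at higher floors. The 10 genes and the pathway and marker lists were chosen with earlier results of these data known. The naming rule covered the 10 genes, the largest called difference of each list at each site, genes under background on all arrays, and the 3 nearest genes. Il10rb, Il22ra1, Il23r, Ccr6, Cebpb, Socs3, Tnfaip3, Nfkbia, Stat3, Traf5, Tab2, Tyk2 and Il20, and the ligands Il17b and Il17d, were named after their values were seen. Single genes of the marker lists were likewise named after their values were seen. Alternatives changed scaling, floors, filters, moderation, weights, blocks and arrays. Promoter sequences and gene order are from RefSeq, GRCm38.p6.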

Additional observations from a re-analysis of the deposited data

Results flagged for a closer look

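Within the 40 combinations of gene and group, 2 single arrays were flagged as far from the rest of their group. Chance flags about 1 group in 20, so the count is about what chance gives. Il17a in HDM back skin had its highest value, 4.58, on mouse 8, and the next was 3.72; both were under background. Il23a in HDM ear had its highest value, 5.74, on mouse 7, and the next was 4.11; it was the only HDM ear array above background for that gene. Without that array the back skin difference of Il23a, 0.59, passed the test. The array is from ear and enters that test only through the spread, which is pooled over the groups.

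For 3 genes the HDM effect differed between the sites by the test of the difference itself. It was larger in ear by 1.62 for Il17ra, by 2.78 for Nfkbiz and by 2.16 for Ccl20, the last of which did not outlast leaving out most single arrays.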

How the results depend on the processing

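The number of the 10 genes called was 1 in HDM back skin and 8 in HDM ear, 3 for the difference between these effects, and 2 and 3 for ear against back skin in sham and in HDM mice. Leaving out 1 array at a time gave 1 to 2, 6 to 9, 2 to 4, 2 to 3 and 2 to 4. In back skin the count was 3 with array medians made equal, 2 with array weights, 2 with only the groups of the comparison, 3 without sham back skin mice 1 and 2, and 3 by the unadjusted exact permutation test. Equal medians moved the median of all rows in back skin from 0.01 to 0.13, and the share of calls that were higher from 41.9% to 63.6% there, from 66.8% to 45.8% for the difference of effects, and from 52.6% to 67.3% for sham ear against sham back skin. With values raised to the highest array background the counts were 0 in back skin and 5 in ear. With values raised to each array's 95th percentile of the negative controls they were 0 of 4 in back skin, 5 of 5 in ear, and 1 of 4 and 1 of 5 for the sites in sham and in HDM mice, since genes at the floor on every array give no value. These counts take either direction, and the ear calls include Il17f and Il17re, which were lower in HDM mice at this floor. With values under background raised to it, 5 genes were called for the difference, counted in either direction. For the sites, only the groups of the comparison gave 4 in sham mice, the permutation test 4 in sham and 5 in HDM mice. The mouse number as a fixed block gave 5 in HDM mice. Correlations between arrays of the same number ran from -0.14 to 0.14 over all pairs of groups compared. Between back skin and ear they ran from -0.11 to 0.04 in sham and from -0.08 to 0.14 in HDM mice. At most 1 of 8 arrays correlated best with its own number. These values compare different sites or agents, and whether a number marks the same animal was not tested. As a random block (correlation 0.015) the numbers changed no call of the 10 genes. Some signs of differences near 0 that passed no test turned under other settings. In back skin Il17re went from -0.07 to 0.06 with equal medians, and leaving out 1 array gave -0.18 to 0.10 for Il17re, -0.32 to 0.46 for Ccl20 and -0.03 to 0.39 for Nfkbiz. Further signs turned with raised values, where the floor itself differs between groups (95th percentile means of 8.52 and 8.78 in sham and HDM back skin, 9.29 and 8.64 in sham and HDM ear). Raised to background, Il17c became -0.05 in ear and -0.63 for the difference of effects, and Il23a -0.28 in ear. Raised to the 95th percentile, Il17f became -0.54 in ear and -0.81 for the difference, Il17re -0.59, -0.86 and, between sites in HDM mice, -0.08, and Ccl20 -0.37 for the difference and 0.23 between sites in sham mice. Leaving out single arrays and raising values to the highest background were chosen after seeing the data. Sham back skin mice 1 and 2 were also picked from these data. A filter on rows above background on at least 8 arrays kept 7 of the 10 genes.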

Other observations

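The list of type 17 lymphocyte markers did not move one way in HDM ear: of 9 measured genes 3 rose and 3 fell. Of all rows 16.4% rose and 15.5% fell there. The rises were Il23r, Ccr6 and Il1r1, the receptor for IL-1, by 1.23 ± 0.21 (limma, adjusted p = 2.05e-05). The falls were Rora, which encodes RORalpha, by 1.30 ± 0.37, the transcription factor gene Maf by 0.71 ± 0.20 and Sox13 by 0.69 ± 0.27 (limma, adjusted p = 0.00705, 0.00483 and 0.0465). Rora also fell in HDM back skin, by 1.64 ± 0.37 (limma, adjusted p = 0.00253), with every HDM array under every sham array. Rora had 3 rows, and its values here are from the row with the highest mean only. Other skin cells express several of these genes. Among T cell markers, Cd4 and Cd2 rose in ear, by 1.34 ± 0.30 and 1.56 ± 0.35 (limma, adjusted p = 0.000603 and 0.000619), while Cd3e differed by -0.40 ± 0.27 (limma, adjusted p = 0.295). Dendritic cell markers were lower in HDM back skin for 4 of 7 genes, Cd209a, Cd207, H2-Ab1 and Flt3, against 8.56% of all rows. In ear 0 of 7 were called by limma, with 1, Itgax, at an unadjusted p under 0.05. Flt3 was above background on 1 of the 32 arrays.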
